A study of Mus musculus with 16 samples.

Results

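The genes described here are the α-ketoglutarate (α-KG)-dependent dioxygenases outside the TET and histone demethylase families. They were chosen by name, as a list of 42 symbols. Of these symbols, 41 are among the 18929 genes of the expression table, and the expression of Bbox1 was not analysed here. RNA was sequenced from 16 subcutaneous B16F10 tumors, with 4 tumors in each of 4 groups, labelled Vehicle, PD1mAb, alpha_KG and aKG_PD1mAb and called vehicle, anti-PD1, α-KG and the combination (α-KG plus anti-PD1) below. B16F10 cells, a line from a melanoma of a C57BL/6 mouse, were implanted in female C57BL/6 mice aged 7 to 8 weeks. Injections were intraperitoneal and began when tumors reached about 50 mm3. Vehicle mice received corn oil and an IgG isotype control, the α-KG groups received α-KG at 100 mg/kg, and the anti-PD1 groups received a monoclonal antibody against PD1. Treatment lasted 9 to 11 days, and the sequenced tumors came from separate animals. It is not stated here whether mice given 1 agent also received the control of the other. All 4 groups carried the same line, and each value is an average over all the cells of a tumor.

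These enzymes split molecular oxygen with the help of iron and α-KG, place 1 oxygen atom on their substrate and turn α-KG into succinate. The family reads oxygen through the hydroxylation of hypoxia-inducible factor (HIF), builds stable collagen through the hydroxylation of proline and lysine, removes methyl groups from RNA and DNA, and hydroxylates ribosomal and other proteins, phytanoyl-CoA and the precursors of carnitine. α-KG is their co-substrate. The comparisons below ask whether the transcripts of the enzymes differed between tumors of treated and control mice. Enzyme activity was not measured.

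The deposited values are FPKM (fragment counts corrected for gene length and library size), so that levels can be compared between genes. Differences are given as log2(FPKM + 1), where genes near or below 1 FPKM appear to change less than they do. A member passed the test when its limma p was under 0.05 after Benjamini-Hochberg adjustment across 12850 tested genes. The depth of the libraries is unknown. FPKM summed to between 514180 and 654772 per tumor and 15718 to 16355 genes were above 0. Hemoglobin genes took 10.9 to 16.8% of the sum in vehicle and 2.09 to 2.23% in combination tumors. The 7 melanocyte markers summed to between 7845 and 10572 FPKM per tumor, and keratinocyte markers stayed at or below 0.80. The scale on which tumors are compared matters for this series. Across all genes the median difference between the combination and vehicle was 0.15 as deposited, -0.11 after quantile normalization, -0.16 after centering on tumor medians and 0.34 with sums made equal.

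The members were unequally expressed. Egln1 had the highest median over the 16 tumors, 92.1 FPKM, followed by the lysyl hydroxylase Plod1 at 85.0, the protein hydroxylase Jmjd6 at 83.8 and the lysyl hydroxylase Plod2 at 66.8 FPKM. These 4 members were at or above 50 FPKM, 16 members lay between 10 and 50, 16 between 1 and 10, and 5 below 1. The ranges of the first 3 overlapped widely, from 72.3 to 111 FPKM for Egln1, 67.8 to 123 for Plod1 and 61.2 to 106 for Jmjd6, so their order is not fixed beyond the spread between tumors. P4ha3, P4htm and P3h4 reached at most 0.10, 0.23 and 0.50 FPKM and did not pass the filter on low values, which left 38 members for testing. All 38 are counted below whether or not they differed. Of these, Asphd1 met the filter, 0.5 FPKM in at least 4 tumors, only through the group where it was high. Among the 38, 19 passed in at least 1 of 6 comparisons and 19 in none.

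The 250 bases before the start of Egln1 and Egln3 are printed because these genes encode the most abundant member and the member with the largest change after α-KG alone, and because both are textbook HIF targets. Capitals mark the HIF core letters ACGTG or GCGTG, searched on both strands. The letters begin 126 and 68 bases before the Egln1 start and 229 bases before the Egln3 start. Sequences are from RefSeq on build GRCm38.p6, the same assembly as the mm10 named in the submitters' processing notes, at chr8:124949255-124949504 on the minus strand for Egln1 and chr12:54203875-54204124 on the minus strand for Egln3.
Egln1: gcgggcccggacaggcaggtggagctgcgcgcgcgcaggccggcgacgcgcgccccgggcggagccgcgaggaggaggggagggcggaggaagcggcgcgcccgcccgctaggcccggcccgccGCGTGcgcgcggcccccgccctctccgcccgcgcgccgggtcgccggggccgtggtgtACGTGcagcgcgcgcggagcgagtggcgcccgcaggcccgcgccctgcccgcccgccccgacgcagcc
Egln3: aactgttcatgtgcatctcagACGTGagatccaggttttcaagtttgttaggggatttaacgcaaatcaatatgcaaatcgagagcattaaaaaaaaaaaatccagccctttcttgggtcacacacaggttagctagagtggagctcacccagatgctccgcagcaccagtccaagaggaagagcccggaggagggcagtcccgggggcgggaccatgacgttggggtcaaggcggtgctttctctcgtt
The match is a description of letters and not of a bound site. In windows of 300 bases, from 250 before to 50 after a start, the core was found in 43.8% of 32851 windows of the genome. It was in 22 of 42 member windows (52.4%), which cover 35 of the listed symbols, Bbox1 among them. The STAT letters TTCNNNGAA were in 8.3% of all windows and in 4 member windows, and the core of the interferon-stimulated response element was in 3.44% and 2.

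The HIF hydroxylases set the response to oxygen. Egln1, Egln2 and Egln3 (PHD2, PHD1 and PHD3) hydroxylate prolines of HIF-α, which marks it for destruction by the von Hippel-Lindau complex, and Hif1an (FIH) hydroxylates an asparagine that HIF-α needs to recruit coactivators. After α-KG alone 3 of these 4 transcripts were higher than in vehicle and the fourth, Egln1, did not pass, where 8.4% of all genes were higher. Egln3 (Gene ID 112407, chr12:54178981-54203874) had the largest difference of any member in that comparison. Its FPKM was 3.62, 3.18, 3.65 and 4.08 in the vehicle tumors, 5.27, 4.04, 6.15 and 6.24 after anti-PD1, 16, 8.42, 12.46 and 15.04 after α-KG, and 4.11, 3.68, 5.85 and 3.05 after the combination. Every α-KG tumor lay above every tumor of the other groups, and the combination tumors overlapped vehicle. The mean was 13 ± 3.39 FPKM (SD, n = 4) after α-KG against 3.63 ± 0.368 in vehicle, a log2 difference of 1.56 (standard error 0.19, limma adjusted p = 3.16e-05). Adding anti-PD1 to α-KG went with a lower level, at -1.43 against α-KG alone (standard error 0.19, limma adjusted p = 0.000161). The interaction, how far the anti-PD1 effect shifted when α-KG was present, was -1.89 (standard error 0.26, limma adjusted p = 0.000553). These 3 calls held in every alternative run, with 1.45 to 1.77, -1.77 to -1.23 and -2.16 to -1.71.

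Hif1an (Gene ID 319594, chr19:44562854-44576274) was at 7.95, 7.21, 5.42 and 6.14 FPKM in vehicle, 8.13, 8.73, 9.49 and 7.21 after anti-PD1, 10.24, 11.92, 12.37 and 10.68 after α-KG and 9.38, 11.8, 9.54 and 9.38 after the combination. Both groups given α-KG lay wholly above vehicle, while the anti-PD1 tumors overlapped it. The log2 difference from vehicle was 0.69 after α-KG (standard error 0.12, limma adjusted p = 0.000738), which held in every alternative run, and 0.53 after the combination (limma adjusted p = 0.00239). The second was 0.17 after quantile normalization and 0.22 after centering, with limma adjusted p of 0.196 and 0.111, so it rests on the scale.

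Egln2 was at 21.39, 20.18, 18.08 and 18.5 FPKM in vehicle, 21.62, 21.42, 22.15 and 19.37 after anti-PD1, 23.97, 24.08, 22.96 and 21.53 after α-KG and 23.67, 24.02, 25.14 and 24.47 after the combination. The 2 α-KG groups again lay above vehicle, by small amounts. The log2 difference was 0.23 after α-KG (limma adjusted p = 0.029) and 0.30 after the combination (limma adjusted p = 0.00265). The first was lost without vehicle tumor 3 or 4 or without α-KG tumor 1, 2 or 3 (0.20 to 0.24), after centering (0.20), with sums made equal (0.22, without hemoglobin 0.18) and with only the 2 groups fitted. The second was 0.13 after quantile normalization and did not pass, and became -0.01 after centering on tumor medians.
Egln1 (Gene ID 112405, chr8:124908587-124949254), the main oxygen sensor of most cells, was at 96.48, 91.93, 85.91 and 83.51 FPKM in vehicle, 95.54, 90.47, 111.25 and 86.48 after anti-PD1, 101.88, 99.63, 104.49 and 92.24 after α-KG and 72.35, 101.91, 87.15 and 87.11 after the combination. The groups overlapped. Its differences from vehicle were 0.15 (95% interval -0.05 to 0.36) after α-KG and -0.05 (-0.25 to 0.16) after the combination, and neither passed.

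**Figure D1:**
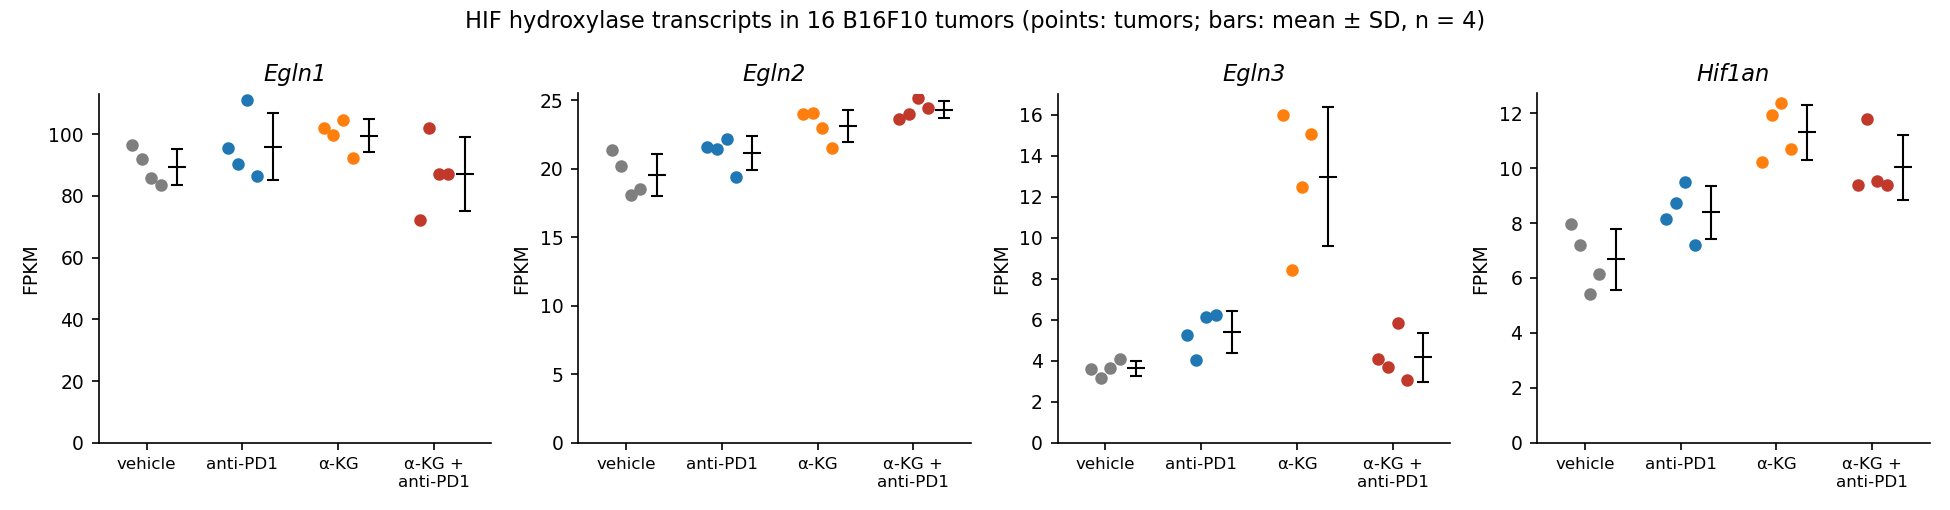
FPKM of Egln1, Egln2, Egln3 and Hif1an by treatment group, with points for the 4 tumors of each group and bars for mean ± SD on linear axes that start at 0. The Egln3 points of the α-KG group, 8.42 to 16 FPKM, sit above all others, and the Hif1an points of both α-KG groups sit above vehicle.

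The group with the highest Egln3, α-KG alone, was also the group with the highest neutrophil markers. The summed FPKM of 5 neutrophil markers (S100a8, S100a9, Csf3r, Cxcr2 and Retnlg) was 1557, 1073, 2095 and 2858 in the α-KG tumors, against 22.2 to 41.0 in vehicle, 18.3 to 103 after anti-PD1 and 32.6 to 111 after the combination. All 5 markers passed as higher than vehicle after α-KG and all 5 as lower in the combination than in α-KG, and none was at 0 throughout a group. Within the α-KG group the tumor with the lowest Egln3, tumor 2, also had the lowest marker sum, while the tumor with the highest Egln3, tumor 1, did not have the highest sum. In anti-PD1 tumor 2 (103 and 4.04 FPKM) and combination tumor 4 (111 and 3.05 FPKM) the highest sum of the group went with the lowest Egln3. In vehicle tumor 4 (41.0 and 4.08 FPKM) it went with the highest Egln3. The part of neutrophil RNA in the Egln3 difference was not tested. In a whole tumor, more cells of a type and more RNA per cell cannot be told apart.

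The HIF pathway itself was described with 14 of its factors, 12 of them tested, and 18 textbook target genes, 17 of them tested. After α-KG alone 8 target genes were lower than in vehicle and 2 were higher, beside 7.53% and 8.4% of all genes. The median of the target genes was -0.29, against -0.04 over all genes. The scales gave 6 to 9 lower and 1 or 2 higher, with medians from -0.35 to -0.29. Among all genes the scales gave 3.14 to 12.8% lower and 6.56 to 8.4% higher. The 2 higher genes were Pfkfb3 and Pfkfb4, which encode enzymes that set the rate of glycolysis, with differences of 1.53 (limma adjusted p = 0.000172) and 0.63 (limma adjusted p = 0.025). Mean Pfkfb3 was 8.18 ± 0.738 FPKM in vehicle and 26.9 ± 10.4 with α-KG (SD, n = 4). Bnip3, a mitophagy gene, was lower, at -0.60 (limma adjusted p = 0.0004) and held in every alternative run. Eno1, a glycolytic enzyme, was at -0.35 (limma adjusted p = 0.0425), a call lost without vehicle tumor 2, 3 or 4, α-KG tumor 2, 3 or 4, anti-PD1 tumor 3 or 4 or combination tumor 3 (-0.35 to -0.31). It did not pass after quantile normalization (-0.31), after centering (-0.39), without the filter or with only the 2 groups fitted. The Pfkfb4 call was lost with sums made equal (0.61). It was also lost without vehicle tumor 3 or 4 or α-KG tumor 1, 3 or 4 (0.56 to 0.62). The Pfkfb3 call held in every alternative run. Vegfa, the vascular growth factor, chosen after its values were seen, was lower, at -0.90 (limma adjusted p = 0.0132), at 49.7 ± 11.6 FPKM against 92.7 ± 16, and without α-KG tumor 3 it was -0.74 and did not pass (limma adjusted p = 0.0519). The combination tumors, also given α-KG, were not low in Vegfa, at 118 ± 33.3 FPKM (84.2 to 164, against 82.5 to 116 in vehicle).
Against vehicle, the combination tumors had 2 target genes higher and 6 lower, with a median of -0.16, beside 34.9% and 10.5% of all genes. The split moved to 0 and 5 after quantile normalization, beside 17.4% and 31.1% of all genes. It was 1 and 13 after centering, beside 17.1% and 37.4%. With sums made equal it was 2 and 4, beside 49.0% and 1.95%, and the median of the target genes was 0.06. Pfkfb4 and Pfkfb3 were the higher pair (0.80 and 0.72), and Eno1 and Bnip3 fell furthest (-0.68 and -0.58, with limma adjusted p of 0.0005 and 0.000509). After quantile normalization Pfkfb4 (0.29), Pfkfb3 (0.44) and Eno1 (-0.30) did not pass, and Pfkfb3 was also lost after centering (0.41) and without combination tumor 3 (0.61). Among the factors, 3 rose and 2 fell, beside 34.9% and 10.5% of all genes. Os9, a lectin of the endoplasmic reticulum, was higher by 0.43, Arnt, the partner of HIF-α, was higher by 0.36, and Elob, a subunit of the von Hippel-Lindau complex, was lower, at -0.31. Elob was lost without vehicle tumor 1, 3 or 4 or combination tumor 1, 3 or 4 (-0.33 to -0.26), and after centering Os9 (0.11) and Arnt (0.05) did not pass. After quantile normalization Elob (-0.22) and Arnt (0.16) did not pass, and with sums made equal Elob was at -0.09 and did not pass. Hif1a did not pass, at -0.29 (95% interval -0.62 to 0.04). After centering none of the factors was higher and 9 were lower, beside 17.1% and 37.4% of all genes. After α-KG alone 2 factors were lower and none higher, beside 7.53% and 8.4% of all genes.

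**Figure D2:**
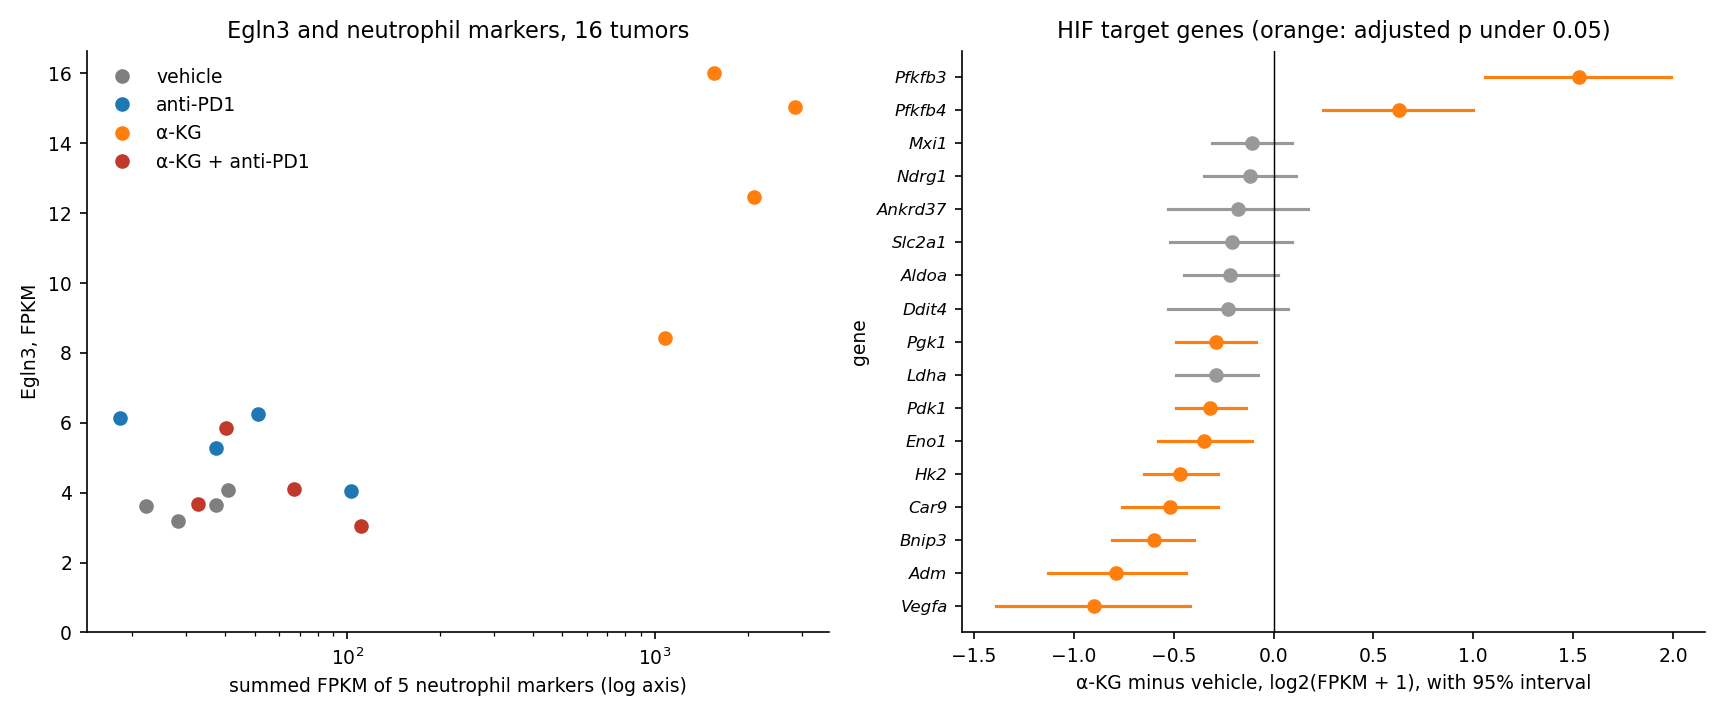
Left, Egln3 in FPKM on a linear axis against the summed FPKM of 5 neutrophil markers on a log axis for the 16 tumors, with groups by color. Right, log2 differences with 95% intervals between α-KG and vehicle for 17 HIF target genes, orange where the adjusted p was under 0.05. The 4 α-KG tumors sit apart at sums from 1073 to 2858, and 8 target genes fell while Pfkfb3 and Pfkfb4 rose.

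Over all 38 members, α-KG alone was followed by 4 higher (10.5%) and 4 lower (10.5%) transcripts. Among all genes tested 8.4% were higher and 7.53% lower, shares near those of the members. Their median was -0.07 against -0.04. The higher members were Egln3, Hif1an, Egln2 and Ogfod2, and the lower ones were Jmjd6, Plod2, Asph and Alkbh3. With sums made equal 2 were higher and 0 lower, beside 6.56% and 3.14% of all genes. After centering there were 2 and 5, beside 8.21% and 10.7%. After quantile normalization there were 3 and 5, beside 8.09% and 12.8%. Without vehicle tumor 4, α-KG tumor 2 or α-KG tumor 3 the number called fell to 5. Vehicle tumor 4 also carried the most skeletal muscle RNA, 644 FPKM summed over 5 markers against 49.7 to 66.7 in the other vehicle tumors. The sums were 2.49 to 3.97 after anti-PD1, 3.3 to 4.13 after α-KG and 4.11 to 62.3 after the combination. All 5 markers were lower than in vehicle after α-KG and after the combination, and 4 after anti-PD1. The part of muscle RNA in the differences from vehicle was not tested.

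Anti-PD1 alone was followed by 0 higher and 0 lower members, where 0.467% of all genes were higher and 0.28% lower by limma. At an unadjusted p under 0.05 the numbers were 6 members and 2130 genes. With weights for tumor quality in limma 7 members were higher and 4 lower, where 19.6% of all genes were higher and 13.6% lower. The largest differences were 0.46 for Egln3 (95% interval 0.06 to 0.86, limma adjusted p = 0.235) and 0.41 for Alkbh4 (0.13 to 0.70, limma adjusted p = 0.14), neither of which passed.

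After the combination 11 members (28.9%) were higher than in vehicle and 2 (5.26%) were lower. The shares among all genes were 34.9% and 10.5%, above those of the members in both directions, and the median was 0.09 for members and 0.15 for all genes. The higher members were Asphd1, Phyhd1, Alkbh4, Jmjd8, Alkbh1, Ogfod2, Phyh, Hif1an, Tyw5, Egln2 and Riox2, and the lower ones were Plod2 and Jmjd7. The balance turned with the scale, for the members as for all genes. After quantile normalization 4 members were higher and 12 lower, beside 17.4% and 31.1% of all genes. Centering gave 4 and 14, beside 17.1% and 37.4%. Equal sums gave 15 and 0, beside 49.0% and 1.95%, and equal sums without hemoglobin 11 and 0, beside 35.9% and 8.68%. Phyhd1, Alkbh4 and Jmjd8 were higher in every one of the 25 alternatives run. Asphd1 was too, but it was tested only because its combination tumors met the filter.

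**Figure D3:**
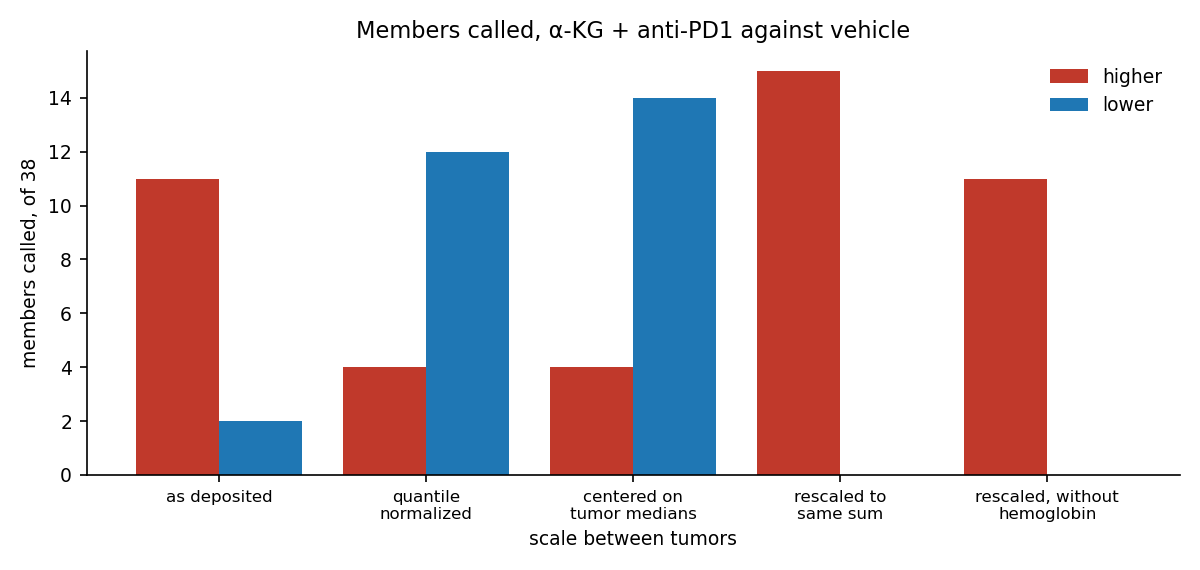
Number of the 38 members called higher (red) or lower (blue) in the combination than in vehicle tumors, for the values as deposited and 4 other scales between tumors. The bars start at 0 and show 11 and 2 as deposited against 4 and 14 after centering on tumor medians.

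Against anti-PD1 alone, 4 members (10.5%) were higher after the combination and 0 were lower, where 14.2% of all genes were higher and 1.31% lower. They were Asphd1, Phyhd1, Tyw5 and Jmjd8, of which Asphd1 was tested only because its combination tumors met the filter. At an unadjusted p under 0.05 there were 9 of 38 members and 4384 of 12850 genes. By limma the adjusted count was 0 for members and for all genes when only the 2 groups were fitted. Among members it was 2 higher and 6 lower after centering, beside 6.24% and 15.3% of all genes. With sums made equal it was 13 higher and 0 lower, beside 32.7% and 0.28%. It fell to 2 without anti-PD1 tumor 1, anti-PD1 tumor 4 or combination tumor 3.
Against α-KG alone, 10 members (26.3%) were higher and 1 (2.63%), Egln3, was lower, beside 31.8% and 6.47% of all genes. Alkbh1, Alkbh3, Alkbh4, Asph, Asphd1, Jmjd8, Ogfod1, P3h3, Phyhd1 and Tyw5 were the higher ones, and the limit on Asphd1 holds here too. The numbers were 7 and 5 after quantile normalization, beside 15.7% and 15.7% of all genes. After centering they were 6 and 8, beside 13.7% and 24.3%. With sums made equal they were 19 and 1, beside 53.1% and 2.86%.
The interaction passed for 4 members. It was positive for 3 (7.89%, against 7.99% of all genes) and negative for 1 (2.63%, against 3.13%), shares close to those of all genes. The comparisons share control tumors, so their values are set side by side and their overlap is not a result.

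**Figure D4:**
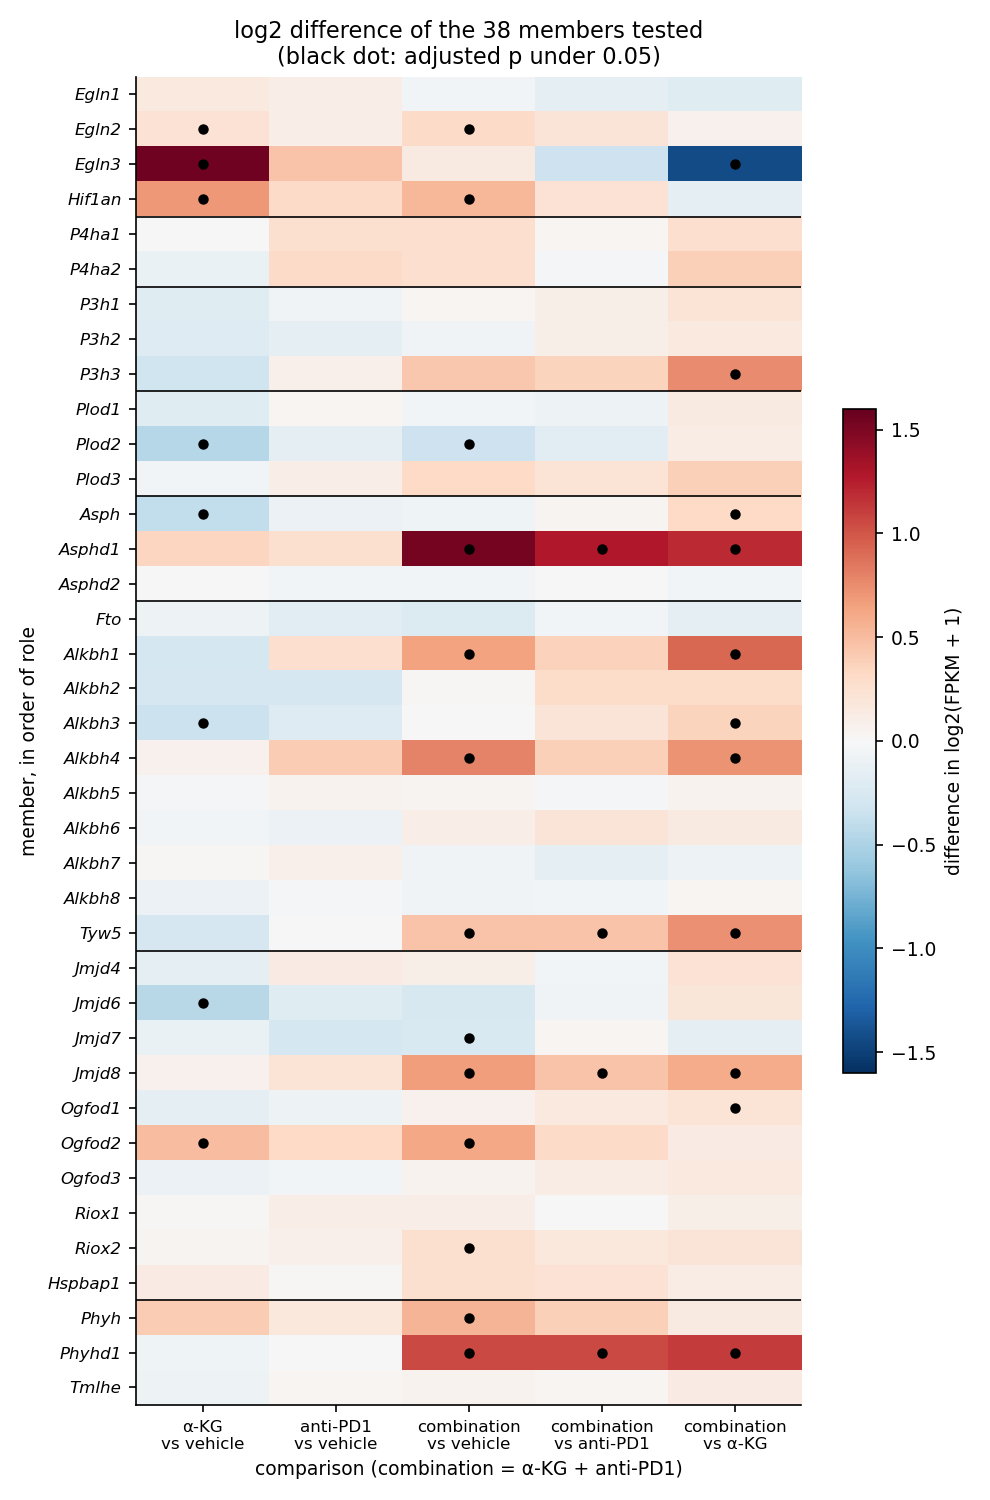
Differences in log2(FPKM + 1) for the 38 members tested (rows, grouped by role) in 5 comparisons (columns), red for higher and blue for lower in the first-named group, with a black dot where the adjusted p was under 0.05. The darkest cells are Egln3 after α-KG (1.56) and Asphd1 after the combination (1.53) against vehicle.

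The collagen prolyl 4-hydroxylases stabilize the collagen triple helix. P4ha1, a catalytic subunit, was at 56.35, 49.83, 41.1 and 39.12 FPKM in vehicle, 47.53, 63.6, 58.35 and 51.67 after anti-PD1, 47.84, 46.54, 45.67 and 45.66 after α-KG and 46.76, 63.83, 59.04 and 55.76 after the combination. The groups overlapped and no comparison passed. Its difference from vehicle was 0.27 (95% interval 0.02 to 0.53, limma adjusted p = 0.0705) after the combination. P4ha2, a second catalytic subunit, lay between 25.9 and 54.2 FPKM and passed nowhere.
Prolyl 3-hydroxylases act on a few collagen prolines. P3h3 was at 57.09, 36.49, 29.09 and 30.04 FPKM in vehicle, 28.01, 54.64, 45.12 and 33.41 after anti-PD1, 29.47, 29.96, 28.12 and 29.82 after α-KG and 34.64, 71.24, 47.79 and 52.25 after the combination. The α-KG tumors were close together and below all combination tumors, while vehicle and anti-PD1 tumors spread across both. The difference between the combination and α-KG was 0.75 (standard error 0.23, limma adjusted p = 0.0206). It did not pass after centering (0.47), without α-KG tumor 3 (0.73) or without combination tumor 2 (0.58). P3h1 and P3h2, at 9.45 to 20.4 and 4.77 to 9.14 FPKM, passed nowhere.

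Lysyl hydroxylases prepare collagen for crosslinks, and Plod2 acts on the lysines at the ends of the chains. Plod2 was at 76.42, 75.87, 77.07 and 73.64 FPKM in vehicle, 61.97, 74.38, 69.28 and 65.15 after anti-PD1, 60.22, 46.85, 53.22 and 60.27 after α-KG and 45.93, 68.35, 55.96 and 73.08 after the combination. All tumors of both α-KG groups were below all vehicle tumors. Its difference from vehicle was -0.46 after α-KG (standard error 0.12, limma adjusted p = 0.0171) and -0.33 after the combination (limma adjusted p = 0.0338). The first did not pass with sums made equal (limma adjusted p = 0.056) or without α-KG tumor 2 (0.059). The second was lost without any 1 vehicle tumor (-0.35 to -0.33) and without combination tumor 1 (-0.21) or tumor 3 (-0.30), and was -0.12 with sums made equal. Plod1 (67.8 to 123 FPKM) and Plod3 (22.4 to 37.0 FPKM) passed in no comparison.
The substrates and partners of these enzymes were followed with 18 genes of collagens, their folding and their crosslinking, 16 of them tested. After the combination 1 was higher and 4 were lower than in vehicle, with a median of -0.08, beside 34.9% and 10.5% of all genes. After α-KG alone 0 were higher and 3 lower, with a median of -0.20, beside 8.4% and 7.53% of all genes. The largest differences after the combination were -0.55 for Col4a1, a basement membrane collagen, -0.53 for P4hb, the partner subunit of P4ha1, -0.44 for Loxl2, a lysyl oxidase, and -0.41 for Ppib, a collagen prolyl isomerase. P4hb fell from 502 ± 16.5 FPKM (SD, n = 4) in vehicle to 350 ± 52.5, with a limma adjusted p of 0.000823. Col4a1 was lost without vehicle tumor 1, 3 or 4 or combination tumor 1 or 3 (-0.57 to -0.38). On the scale with equal sums Col4a1 (-0.35), Loxl2 (-0.24) and Ppib (-0.19) did not pass. With sums made equal 1 gene of the list was higher and 1 lower, beside 49.0% and 1.95% of all genes, and the median of the list was 0.12. Fibroblast markers were low, with sums of 6 markers from 3.83 to 21.0 FPKM per tumor.

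The aspartyl and asparaginyl β-hydroxylase family includes Asph, which hydroxylates epidermal growth factor-like domains, and its relatives Asphd1 and Asphd2. Asphd1 (Gene ID 233879, chr7:126945987-126949582) was at 0.34, 0.10, 0.14 and 0.22 FPKM in vehicle, 0.00, 0.93, 0.84 and 0.14 after anti-PD1, 0.16, 1.47, 0.26 and 0.46 after α-KG and 2.17, 2.54, 3.35 and 1.91 after the combination. The 4 combination tumors lay above the other 12, of which 3 reached 0.5 FPKM. Asphd1 was therefore tested only through the group where it was high, and its p values carry that limit. The mean was 2.49 ± 0.627 FPKM (SD, n = 4) against 0.20 ± 0.106 in vehicle, and the log2 difference was 1.53 (standard error 0.24, limma adjusted p = 0.000476). It was 1.28 against anti-PD1 (limma adjusted p = 0.00952) and 1.19 against α-KG (limma adjusted p = 0.00215). With a pseudocount of 0.1 the difference from vehicle was 3.15, and when only the 2 groups were fitted that from anti-PD1 did not pass (limma adjusted p = 0.0507). The interaction was 0.94 (95% interval 0.22 to 1.67, limma adjusted p = 0.0835) and did not pass.
Asph, at 18.9 to 22.4 FPKM in vehicle, 16.3 to 22.8 after anti-PD1, 15.2 to 16.6 after α-KG and 17.9 to 22.7 after the combination, was lower after α-KG than in vehicle (-0.39, limma adjusted p = 0.0176) and higher after the combination than after α-KG (0.32, limma adjusted p = 0.0219). The first was lost with sums made equal (-0.40) and without vehicle tumor 4 (-0.37). The second was lost without α-KG tumor 2 or 3 or combination tumor 2 or 4 (0.27 to 0.32), after quantile normalization (0.12) and after centering (0.05). Asphd2 stayed between 0.36 and 0.89 FPKM and passed nowhere.

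Among the enzymes that demethylate nucleic acids or modify tRNA, 3 of 10 were higher than in vehicle after the combination and 0 were lower, beside 34.9% and 10.5% of all genes. After α-KG alone 1 was lower, beside 7.53%. Fto, which removes N6-methyladenosine (m6A) and its capped form from RNA, was at 20.2, 25.16, 29.43 and 28.23 FPKM in vehicle, 23.67, 21.33, 21.81 and 23.02 after anti-PD1, 24.25, 22.59, 23.76 and 25.97 after α-KG and 22.72, 22.69, 20.81 and 20.97 after the combination. Vehicle tumor 1 lay below the combination range and the other 3 vehicle tumors above it. The difference of -0.22 (95% interval -0.42 to -0.02, limma adjusted p = 0.0713) did not pass. It was -0.53 after centering and -0.01 with sums made equal. Alkbh5, the other m6A demethylase, lay between 30.2 and 40.4 FPKM with a difference of 0.04 (-0.19 to 0.26).
Of 16 m6A writers and readers, 4 were higher and 0 lower after the combination than in vehicle, beside 34.9% and 10.5% of all genes. The median of the list, 0.15, was equal to that of all genes. Igf2bp2 and Ythdc1, which read the mark, were higher by 0.78 and 0.68, and the writer subunit Rbm15 by 0.32. Rbm15 was lost without vehicle tumor 3 or 4 or combination tumor 1, 3 or 4 (0.28 to 0.33). It was -0.15 after quantile normalization and 0.01 after centering and passed on neither scale. Igf2bp2 did not pass after quantile normalization (0.27). Zc3h13, another writer subunit, differed by 0.43 and did not pass (limma adjusted p = 0.0562). After quantile normalization 1 gene of the list was higher and 7 were lower, beside 17.4% and 31.1% of all genes. After centering there were 2 and 5, beside 17.1% and 37.4%.

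Alkbh4, which has been linked to the demethylation of actin (Gene ID 72041, chr5:136136145-136141800), was at 4.14, 3.15, 3.08 and 2.68 FPKM in vehicle, 4.2, 5.32, 4.46 and 4.62 after anti-PD1, 2.97, 4.81, 3.26 and 2.96 after α-KG and 6.13, 6.83, 6.96 and 5.47 after the combination. The combination tumors lay above the other 12, and the anti-PD1 tumors above vehicle. The difference from vehicle was 0.79 (standard error 0.14, limma adjusted p = 0.0006) and that from α-KG 0.72 (limma adjusted p = 0.00141). Over the scales the first ranged from 0.34 to 0.97 and the second from 0.40 to 0.91, passing in each. Against anti-PD1 the difference of 0.38 did not pass (95% interval 0.09 to 0.67, limma adjusted p = 0.0662).
Tyw5, the tRNA hydroxylase that completes hydroxywybutosine next to the anticodon (Gene ID 68736, chr1:57388235-57406674), was at 8.09, 8.39, 7.78 and 6.75 FPKM in vehicle, 6.38, 9.86, 8.45 and 6.51 after anti-PD1, 6.17, 6.02, 6.47 and 6.3 after α-KG and 10.55, 12.61, 11.45 and 9.48 after the combination. The α-KG tumors were the lowest group and did not overlap vehicle, and combination tumors were above both and overlapped anti-PD1. The difference between α-KG and vehicle, -0.27, did not pass (limma adjusted p = 0.144). The difference between the combination and α-KG was 0.73 (standard error 0.12, limma adjusted p = 0.000759) and held in every alternative run, as did the interaction of 0.73 (standard error 0.17, limma adjusted p = 0.0153). Those of the combination from vehicle and anti-PD1, both 0.46, did not pass after quantile normalization (0.14 and 0.22) or centering (0.14 and 0.23). The second was also lost without anti-PD1 tumor 1 or 4 or without combination tumor 2 or 3 (0.38 to 0.44).

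Alkbh1, which acts on tRNA and DNA, was at 14.41, 9.63, 7.92 and 7.51 FPKM in vehicle, 7.69, 16.58, 14.32 and 10.28 after anti-PD1, 9.36, 7.77, 5.46 and 8.86 after α-KG and 11.38, 22.42, 14.75 and 15.25 after the combination. All combination tumors were above all α-KG tumors, and vehicle tumor 1 was within the combination range. The difference from α-KG was 0.92 (standard error 0.25, limma adjusted p = 0.0094), with 0.65 to 1.13 over the scales. That from vehicle, 0.64 (limma adjusted p = 0.0435), passed in 11 of 25 alternatives. It was 0.36 after quantile normalization and 0.33 after centering (limma adjusted p = 0.17 and 0.185). It was also lost without vehicle tumor 2, 3 or 4, anti-PD1 tumor 4, α-KG tumor 2 or 4, or combination tumor 2, 3 or 4 (0.48 to 0.67).
Alkbh3, a repair enzyme for alkylated DNA and RNA, was at 29.25, 28.32, 31.28 and 33.89 FPKM in vehicle, 22.87, 28.35, 26.57 and 28.08 after anti-PD1, 25.54, 22.25, 22.41 and 25.41 after α-KG and 29.8, 32.42, 28.44 and 32.1 after the combination. The α-KG group alone lay below vehicle without overlap, and the combination group lay within the vehicle range. The difference after α-KG was -0.35 (standard error 0.08, limma adjusted p = 0.0102), and the combination was higher than α-KG by 0.35 (limma adjusted p = 0.00506), with an interaction of 0.56 (limma adjusted p = 0.00926). After centering the last 2 values were 0.08 and 0.36 and did not pass, and the combination was then lower than vehicle, at -0.31 (limma adjusted p = 0.0107) in place of 0.00. The difference after α-KG did not pass with sums made equal (-0.36, limma adjusted p = 0.0552). That between the combination and α-KG did not pass after quantile normalization (0.19, limma adjusted p = 0.073). Alkbh2, Alkbh6, Alkbh7 and Alkbh8 lay between 9.02 and 15.6, 25.6 and 39.5, 13.8 and 20.3, and 3.11 and 4.31 FPKM, and passed nowhere.

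Among the JmjC-only, ribosomal and other protein hydroxylases 3 of 10 were higher and 1 lower after the combination than in vehicle, near the 34.9% and 10.5% of all genes. Jmjd8, a JmjC protein of the endoplasmic reticulum (Gene ID 72106, chr17:25829043-25831843), was at 19.97, 14.5, 13.26 and 13.8 FPKM in vehicle, 16.56, 21.44, 18.45 and 15.56 after anti-PD1, 15.56, 17.21, 15.36 and 16.1 after α-KG and 20.7, 30.37, 27.64 and 21.41 after the combination. The combination tumors lay above vehicle and α-KG and overlapped anti-PD1 tumor 2. The difference was 0.67 from vehicle (standard error 0.14, limma adjusted p = 0.00178) and 0.59 from α-KG (limma adjusted p = 0.00453), with 0.36 to 0.88 and 0.32 to 0.81 over the scales. That from anti-PD1, 0.45 (limma adjusted p = 0.0428), passed in 11 of 25 alternatives and was lost without vehicle tumor 2, anti-PD1 tumor 1, 3 or 4, α-KG tumor 1, 3 or 4, or combination tumor 2 or 3 (0.35 to 0.46). It was also lost after quantile normalization (0.30) and after centering (0.21).
Ogfod2 was at 8.63, 6.69, 6.7 and 7.48 FPKM in vehicle, 9.99, 9.24, 9.6 and 8.94 after anti-PD1, 10.83, 11.63, 11.96 and 8.63 after α-KG and 8.93, 14.8, 14.36 and 10.22 after the combination. Each treated tumor was at or above the highest vehicle tumor. The differences from vehicle were 0.62 after the combination (standard error 0.14, limma adjusted p = 0.00305) and 0.49 after α-KG (limma adjusted p = 0.0295). The first was 0.30 after quantile normalization and 0.31 after centering and did not pass (limma adjusted p = 0.127 and 0.0989). The second did not pass on these scales (0.42 and 0.45) or with sums made equal (0.47), and was lost without vehicle tumor 2, 3 or 4 or α-KG tumor 1, 2 or 3 (0.44 to 0.49).
Jmjd6, a lysyl hydroxylase of splicing proteins, was at 97.1 ± 6.95 FPKM (SD, n = 4) in vehicle and 70.7 ± 5.31 after α-KG, lower, at -0.45 (limma adjusted p = 0.0179), with 64.7 to 77.6 FPKM against 88.9 to 106. Without α-KG tumor 3 it was -0.41 and did not pass (limma adjusted p = 0.0596). With sums made equal it was -0.46 and did not pass either (limma adjusted p = 0.0621). Riox2, a ribosomal histidyl hydroxylase, was at 13.6 to 15.9 FPKM after the combination and 10.4 to 13.1 in vehicle (0.25, limma adjusted p = 0.0271), a call lost without vehicle tumor 1 or combination tumor 1 or 3 (0.18 to 0.24) and turned to -0.06 by centering. Jmjd7 was lower in that comparison (-0.25, limma adjusted p = 0.034), at 4.13 to 5.04 against 5.01 to 5.97 FPKM, and was lost without vehicle tumor 3 or 4 or combination tumor 1, 2 or 3 (-0.25 to -0.22). With sums made equal it was -0.07 (limma adjusted p = 0.599), and after quantile normalization -0.68. Ogfod1, which hydroxylates a protein of the small ribosomal subunit, was at 4.85 to 5.85 FPKM after the combination and 4.05 to 4.84 after α-KG (0.22, limma adjusted p = 0.0464). It was lost in 11 of the 16 fits that left out a tumor (0.18 to 0.23) and was -0.10 after quantile normalization and -0.05 after centering. Jmjd4, Ogfod3, Riox1 and Hspbap1 lay between 1.29 and 12.2 FPKM and passed nowhere.

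Small-molecule oxygenases work on lipids and carnitine precursors. Phyh, which hydroxylates phytanoyl-CoA in peroxisomes so that branched fatty acids can be broken down, was at 7.6, 10.07, 8.17 and 9.9 FPKM in vehicle, 10.08, 9.55, 10.04 and 10.77 after anti-PD1, 13.42, 10.47, 13.85 and 10.89 after α-KG and 17.23, 9.91, 16.55 and 11.31 after the combination. The combination tumors split into 2 high and 2 low ones, of which tumor 2 overlapped vehicle. The difference from vehicle was 0.54 (standard error 0.15, limma adjusted p = 0.00988), and after quantile normalization or centering it was 0.27 or 0.23 and did not pass.
Its relative Phyhd1 (Gene ID 227696, chr2:30266203-30282149) was at 4.69, 5.68, 2.99 and 3.33 FPKM in vehicle, 3.11, 5.02, 4.07 and 4.24 after anti-PD1, 3.81, 3.25, 4.68 and 3.6 after α-KG and 12.33, 9.39, 10.09 and 6.76 after the combination. The 4 combination tumors lay above the other 12, and the other 3 groups overlapped. The mean was 9.64 ± 2.29 FPKM (SD, n = 4) against 4.17 ± 1.24 in vehicle. The log2 difference was 1.05 from vehicle (standard error 0.18, limma adjusted p = 0.000686), 1.05 from anti-PD1 (limma adjusted p = 0.00817) and 1.12 from α-KG (limma adjusted p = 0.000711), and the interaction was 1.12 (standard error 0.26, limma adjusted p = 0.0151). The difference from vehicle was 0.65 to 1.24 over the scales. That from anti-PD1 passed in 24 of 25 alternatives and was at a limma adjusted p of 0.0507 when only the 2 groups were fitted.
Tmlhe, which starts carnitine synthesis, lay between 2.10 and 3.81 FPKM and passed nowhere. Of 10 other genes of carnitine synthesis, transport and use, 3 were higher and 1 lower after the combination than in vehicle. Their median was 0.00, and 34.9% of all genes were higher and 10.5% lower. Cpt1c, Cpt1b and Cpt1a, members of the carnitine palmitoyltransferase 1 family, were higher by 1.10, 0.98 and 0.44, and Shmt1, a serine hydroxymethyltransferase, was lower, at -0.59. Cpt1c was at 15.6 ± 3.48 FPKM (SD, n = 4) against 6.96 ± 2.84, with a limma adjusted p of 0.00231. After quantile normalization 1 was higher and 5 lower, beside 17.4% and 31.1% of all genes. On that scale Cpt1b (0.47) and Cpt1a (0.09) did not pass. Cpt1a did not pass after centering either (0.13).

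**Figure D5:**
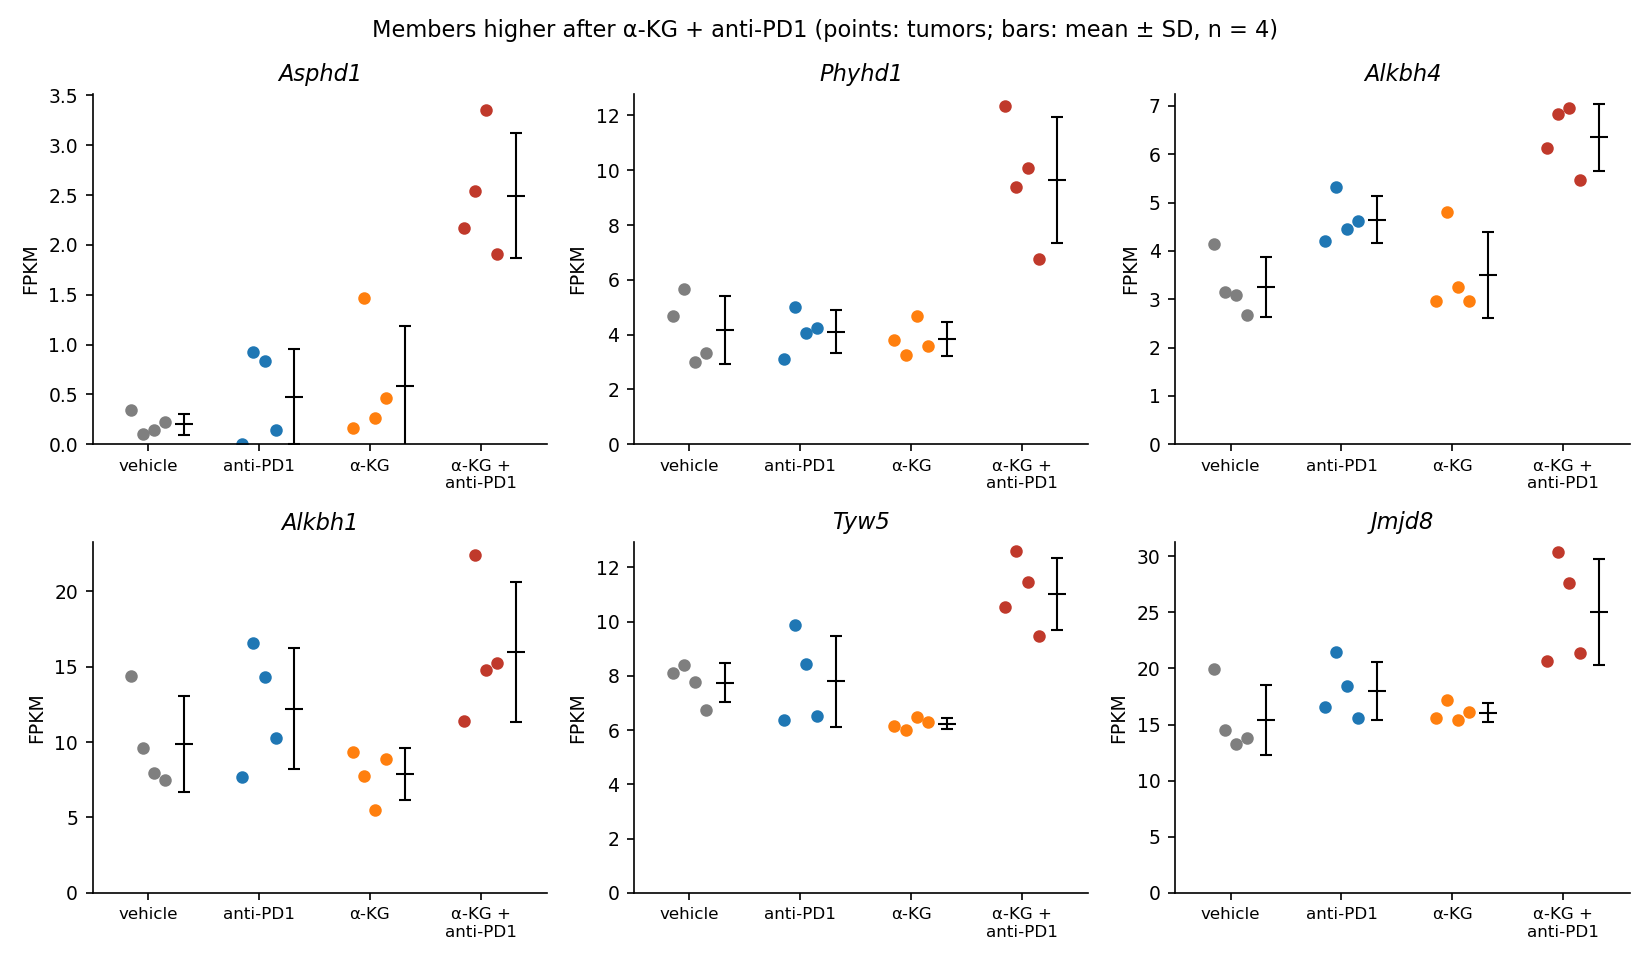
FPKM of Asphd1, Phyhd1, Alkbh4, Alkbh1, Tyw5 and Jmjd8 by treatment group, with points for the 4 tumors of each group and bars for mean ± SD on linear axes that start at 0. The combination points of Asphd1 (1.91 to 3.35), Phyhd1 (6.76 to 12.3) and Alkbh4 (5.47 to 6.96) sit above all other tumors.

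Markers of other cells also differed between the groups. Summed over 6 genes, leukocyte markers were at 40.0 to 167 FPKM in vehicle, 172 to 334 after anti-PD1, 477 to 519 after α-KG and 909, 352, 935 and 252 after the combination. Of the 6 markers, 6 were higher than vehicle in combination tumors and 6 in α-KG tumors, and none differed between these 2 groups at an adjusted p under 0.05. T cell markers, also 6, were at 0.93 to 8.13, 9.04 to 29.6, 4.23 to 35.1 and 196, 59.2, 152 and 21.1 FPKM in the same order, and 6 of 6 were higher in the combination than in α-KG. Macrophage markers, 7 in number, were at 97.2 to 486, 426 to 800, 428 to 696 and 672 to 1617 FPKM. Phyh and Phyhd1 were higher in tumors 1 and 3 of the combination group, which had more leukocyte RNA, while Jmjd8, Tyw5 and Alkbh1 were highest in tumor 2, which had less. Phyhd1, Asphd1, Alkbh4 and Tyw5 were lowest in tumor 4, which had the least, and Alkbh1 and Jmjd8 were lowest in tumor 1. The part of leukocyte RNA in the members' differences was not tested. Erythroid markers were at 10891 to 11752 FPKM in combination tumors and 23318 to 145323 elsewhere. Member counts on the scale without hemoglobin are given above for the combination against vehicle only.

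Some members share exons with other genes, and whether the counting used strand is not stated. Of the exonic bases of Phyhd1, 47.0% also belong to Gm28035 on the same strand, and of Jmjd7, 66.7% belong to Gm28042, so fragments there cannot be told apart. On the opposite strand, Jmjd8 shares 39.3% with Stub1, Tyw5 25.6% with Maip1, Alkbh2 29.5% with Usp30 and Riox2 22.4% with Crybg3. For Asphd1 the share was 3.9% and for Alkbh1 1.9%.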

How the data were processed

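Libraries from 16 tumors were made with oligo-dT selection and dUTP marking of 1 strand, and sequenced with DNBSEQ. The authors deposited FPKM values per gene and tumor, and all 16 columns were used. The submitters' processing notes name mm10, HISAT and Bowtie2. The counting program, annotation and filters are not given in the sources used here, and no scaling between tumors is stated. Whole reads could not be recovered, since 30.0% of low values of 855 sparse genes lay within 0.15 of a whole step, where a uniform spread gives 30%. Depth is therefore unknown, and no interval for counting error is given.

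Groups were taken from the labels. The 12850 genes that reached 0.5 FPKM in 4 or more tumors were tested on log2(FPKM + 1) with limma 3.58.1 in R 4.3.3 (1 mean per group, trended empirical Bayes), with Benjamini-Hochberg adjustment over all of them, a threshold of 0.05 and two-sided p. The fit was tested on simulated data. Alternatives were a pseudocount of 0.1, no filter, 4 other scales, the 2 groups alone, a replicate block, array weights and leaving out each tumor. In the main fit the p values rest on the spread between the 4 animals within each group, pooled over all 4 groups.

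Members and gene lists were chosen with earlier results of these data known. Values per tumor are given for members that passed with an absolute log2 difference of at least 0.5 and for Egln1, Egln2, Egln3, Hif1an, P4ha1, Plod2 and Fto. For each pathway list the 4 genes with the largest difference between the combination and vehicle are named, and other genes are said to be chosen later. Gene positions, promoters and exon overlaps came from RefSeq GRCm38.p6 and GENCODE. All 41 symbols matched.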

Additional observations from a re-analysis of the deposited data

Results flagged for a closer look

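Tumors that stood apart were looked for in each member and group of 4, by Dixon's ratio of the gap to the nearest tumor over the range, at its 95% critical value. Of 152 groups 6 had such a tumor, and chance flags about 1 in 20. They were the highest tumors for Hif1an after the combination (11.8 FPKM), Plod3 in vehicle (36.92 FPKM), Alkbh4 after α-KG (4.81 FPKM) and Ogfod3 in vehicle (10.28 FPKM), and the lowest for Asph in vehicle (18.93 FPKM) and Jmjd4 after α-KG (2.84 FPKM).

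The effect of anti-PD1 differed with and without α-KG, by the limma interaction, for Egln3 (-1.89), Phyhd1 (1.12), Tyw5 (0.73) and Alkbh3 (0.56). For Egln3, the neutrophil markers moved in the same direction, and their part was not tested.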

How the results depend on the processing

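Between the combination and vehicle 13 members passed, 21 with array weights and 9 to 15 with 1 tumor left out. After α-KG alone 8 passed, 2 with sums made equal and 5 to 9 with 1 tumor left out. After anti-PD1 alone 0 passed, 11 with array weights (which also called 19.6% of all genes higher and 13.6% lower), and 0 to 2 with 1 tumor left out, where the 2 came without vehicle tumor 1. Between the combination and anti-PD1 4 passed, 8 after centering, 13 with sums made equal, 0 with only the 2 groups fitted, 7 with array weights and 2 to 6 with 1 tumor left out. Against α-KG 11 passed, 20 with sums made equal and 8 to 14 with 1 tumor left out. The interaction passed for 4, for 7 with sums made equal, 8 with array weights and 4 to 7 with 1 tumor left out, 7 without combination tumor 1. With sums made equal the interaction was positive for 16.4% of all genes and negative for 2.21%. The causes were not tested. Egln2 changed sign after centering against vehicle (-0.01, limma adjusted p = 0.944) and against α-KG (-0.20, limma adjusted p = 0.043), and so did Alkbh3 (-0.31, limma adjusted p = 0.0107) and Riox2 (-0.06) against vehicle and Ogfod1 against α-KG (-0.05). After quantile normalization Ogfod1 against α-KG (-0.10) and Rbm15 against vehicle (-0.15) changed sign. This list covers differences described above for which the main or the altered fit passed. Other members turned too. Between the combination and vehicle Jmjd4 went from 0.09 as deposited to a lowest -0.35 over the scales, and Hspbap1 from 0.25 to -0.27. Pairing of tumors by replicate number was not apparent. The r between deviations of same-numbered tumors ran from -0.642 to 0.411, with 9 of 24 pairs over 0.1. Of 16 tumors 3 correlated best with their own number. The labels do not say whether a replicate number marks a shared litter, batch or day, and these values do not settle it. With a replicate block 12 members passed against vehicle and 10 against α-KG, in place of 13 and 11, and Alkbh1 was lost against vehicle (0.64, limma adjusted p = 0.0524) and Ogfod1 against α-KG (0.22, limma adjusted p = 0.0796). Of the pathway genes named, the block ended the calls of Elob (-0.31) and Rbm15 (0.32) after the combination and of Eno1 (-0.35) after α-KG. Unknown depth leaves the precision of values under about 1 FPKM, such as those of Asphd1 outside the combination group, unmeasured.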
